A study of Rattus norvegicus with 8 samples.

Results

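Smooth muscle contractile genes were examined in the ventral prostate of TRAP rats, a rat line whose transgene drives adenocarcinoma of the prostate. The set held 10 listed genes, and probes were taken where the gene name in the scanner files was one of them. That rule found 8 genes with 11 of the 41012 probes. Tpm2 carries an older name in the files and was found only through its RefSeq accession, which added 3 probes and gave 9 genes with 14 probes. Acta2 was not analysed here. All 14 probes passed the filter on dim probes, and the brightest probe of each of the 9 genes was among the 23207 genes tested.

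Smooth muscle sheathes the prostatic glands and contracts to expel their secretion. Calcium released from internal stores or entering through channels activates myosin light chain kinase, which phosphorylates smooth muscle myosin and lets it pull on actin filaments. Calponin, transgelin and tropomyosin lie along those filaments, and desmin filaments tie the contractile units together. Loss of the smooth muscle sheath around glands is a known feature of invasive prostate carcinoma. Telmisartan blocks the angiotensin II type 1 receptor, through which angiotensin II contracts smooth muscle.

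Each of 8 arrays compared 1 TRAP rat, labelled with Cy5, with a reference labelled with Cy3. The TRAP rats were heterozygous males of strain SD aged 15 weeks: 4 controls on basal diet and tap water (Control 102, 103, 104 and 106) and 4 (Telmisartan 302, 303, 305 and 306) whose drinking water held telmisartan, 10 mg/kg per day over 12 weeks, starting at 3 weeks of age. The reference was normal ventral prostate of male F344 rats aged 6 weeks, so strain, age, transgene and dye differ together between the channels. In TRAP rats the prostate-specific probasin promoter drives the transgene in epithelium, and both groups carry it. The label of the treated rats names 2 doses, and the text of the study ties the arrays to the higher one. Nothing in the labels says whether the reference was 1 pool.

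The 8 arrays lay on 2 slides, each with 2 control and 2 telmisartan rats. Slide 1 held Control 102 and 103 with Telmisartan 302 and 303, and slide 2 held the others. Controls lay at positions 3 and 4 and telmisartan rats at positions 1 and 2 of both slides, so array position and group cannot be told apart. In control rats 64.7% to 76.8% of spots were well above background in Cy5, and in telmisartan rats 59.2% to 68.1%. On slide 1 the shares were 76.8% and 71.9% in controls against 59.2% and 60.5% in telmisartan rats. On slide 2 they overlapped, at 76.4% and 64.7% against 68.1% and 63.5%. The part of this in the differences between the groups was not tested. Of 12 ventral prostate markers, 11 were bright enough to be tested, and 8 of these lay more than 2-fold below the reference in all 8 rats. Telmisartan 302 stood furthest from the other arrays, with a mean correlation across genes of 0.856, against 0.893 to 0.920 for the rest. Separate rats are the replicates, and the number of arrays limits the precision.

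The probes differ in what they read, and 5 are printed, 5′ to 3′ in lower case, because results below refer to them. The brightest Tpm2 probe, on which the main values of Tpm2 rest, is not printed. Both Myh11 probes are shown because they disagreed, a pair of Tpm2 probes because all its probes moved alike, and the Actg2 probe because its gene did not follow the others. The closest probe of another gene shared 37 of the 60 bases with Actg2 and at most 34 with any other member's probe.
Myh11, first probe: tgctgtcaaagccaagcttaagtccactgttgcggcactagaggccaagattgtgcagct
Myh11, second probe: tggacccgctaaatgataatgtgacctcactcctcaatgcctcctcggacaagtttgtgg
Tpm2, dimmer probe 2: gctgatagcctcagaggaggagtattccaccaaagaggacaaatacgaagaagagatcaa
Tpm2, dimmer probe 3: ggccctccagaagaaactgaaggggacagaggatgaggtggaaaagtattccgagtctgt
Actg2: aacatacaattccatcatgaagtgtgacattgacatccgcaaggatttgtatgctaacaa

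Levels are given as log2(TRAP/reference), in which 0 is the level of the reference, and they are described without a test. Across the members the median level was -0.81 in control rats and -0.63 in telmisartan rats, against a median of 0.060 over all genes in control rats. All 8 rats lay below the reference for 7 of the 9 members, as they did for 25.7% of all genes. Myh11, Mylk and Des were more than 2-fold below it in all 8 rats, as were 3.29% of all genes. Median control levels were -0.78 for pericyte markers, -0.59 for fibroblast markers, -0.17 for endothelial markers and 1.72 for immune markers. In bulk tissue, a smaller share of smooth muscle cells and less RNA per cell cannot be told apart. Neither can be told apart from the strain and age differences between the channels.

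These levels depend on the scaling. Loess forces each array's ratios toward 0 along its intensity range, and centring on the array median in its place moved the median of all genes from 0.060 to 0.67. The control levels of Tpm2, Actg2, Tagln and Smtn then lay above the reference, at 1.27, 1.12, 0.55 and 0.32, and only 1 member stayed below it in all rats. The control levels of Mylk, Myh11, Casq2, Cnn1 and Des stayed below under median centring, at -1.33, -0.64, -0.27, -0.27 and -0.24. Myh11 then reached 0.13 in its highest rat. Relative to the median of all genes Myh11 and Mylk lay at -1.95 and -2.60 with loess, and at -1.31 and -2.00 with median centring.

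**Figure D1:**
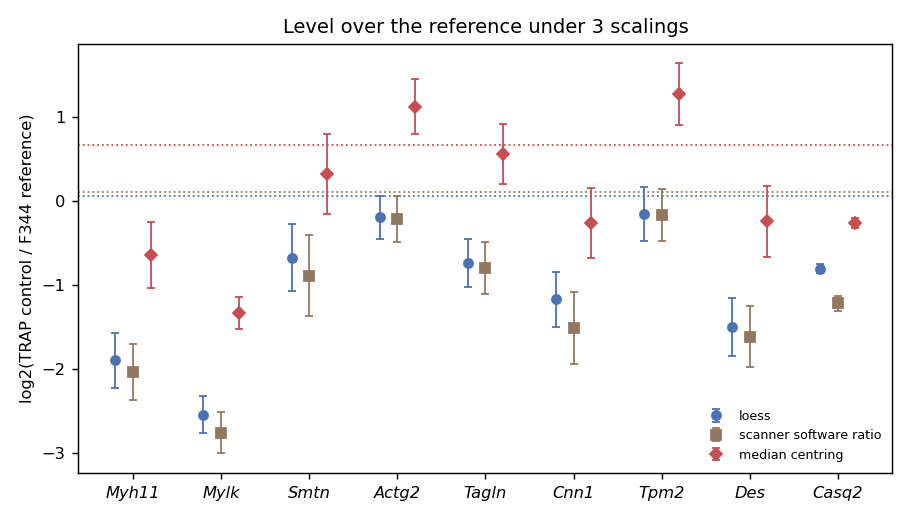
Level of each member in control rats as log2(TRAP/reference) under 3 scalings, with points at the mean and bars at 1 SD (n = 4 rats). Myh11, Mylk, Casq2, Cnn1 and Des lie below 0 under all 3, and Tpm2, Actg2, Tagln and Smtn lie above 0 with median centring.

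Myh11 encodes the heavy chain of smooth muscle myosin, the motor of contraction. Its first probe gave -2.25, -2.08, -1.55 and -1.70 in Control 102, 103, 104 and 106, and -1.37, -1.35, -1.70 and -1.61 in Telmisartan 302, 303, 305 and 306. The slide 1 controls were lowest and the slide 1 telmisartan rats highest, while the slide 2 rats of both groups lay between them, so the groups overlapped. Means were -1.89 ± 0.32 in control and -1.51 ± 0.18 in telmisartan rats (SD, n = 4 each), a difference of 0.39 (SE 0.16, 95% interval 0.020 to 0.76, limma unadjusted p = 0.0407, adjusted p = 0.981). The second Myh11 probe was far dimmer, with Cy5 intensities of 296 to 502 against 3157 to 9486 for the first. It read -0.33 ± 0.082 in control and -0.32 ± 0.23 in telmisartan rats, a difference of 0.012, so the probes disagreed both on the level and on the difference.

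Mylk encodes myosin light chain kinase, which switches the motor on. Its values were -2.65, -2.31, -2.41 and -2.79 in the controls and -1.97, -2.16, -2.43 and -2.28 in the telmisartan rats, in the same order of rats. Telmisartan 302, 303 and 306 lay above every control, the last by little, and Telmisartan 305 lay within the control range. The means of -2.54 ± 0.22 and -2.21 ± 0.20 differed by 0.33 (SE 0.14, limma unadjusted p = 0.0413, adjusted p = 0.981). A second Mylk probe and a second Smtn probe were well above background in the reference on none of the arrays (0 of 8), so their ratios hold no measured level and are not given.

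Tpm2 encodes beta-tropomyosin, which lies along the actin filament in smooth and striated muscle. Its brightest probe gave -0.28, -0.52, -0.064 and 0.23 in the controls and 0.84, 0.45, -0.23 and 0.57 in the telmisartan rats. Of the telmisartan rats only Telmisartan 305 fell within the control range. The means of -0.16 ± 0.32 and 0.41 ± 0.46 differed by 0.56 (SE 0.23, 95% interval 0.046 to 1.08, limma unadjusted p = 0.0356, adjusted p = 0.981). All 3 Tpm2 probes read higher in telmisartan rats, probes 2 and 3 by 0.45 and 0.47. For the brightest probe part of the difference lay in the reference channel, where the mean was lower by 0.25 on the telmisartan arrays. For probes 2 and 3 the reference channel differed by -0.058 and 0.10.

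**Figure D2:**
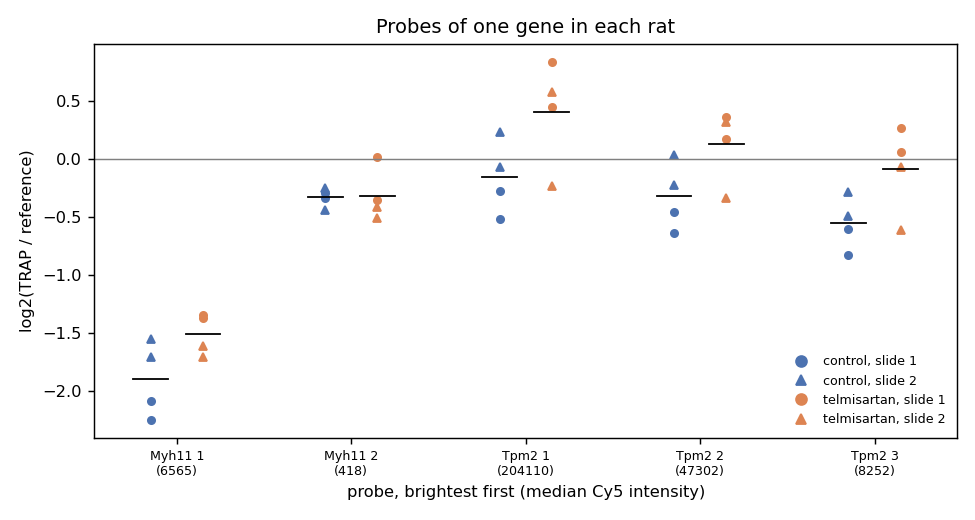
Each probe of Myh11 and Tpm2, brightest first, as log2(TRAP/reference) in each of the 8 rats, with the median Cy5 intensity of the probe under its name. The 3 Tpm2 probes moved alike between rats, whereas the dim second probe of Myh11 lay near -0.3 in both groups.

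Actg2, the gamma smooth muscle actin of visceral muscle, is the thin filament itself. Its values were -0.37, -0.47, -0.0053 and 0.046 in the controls and -0.49, -0.29, -0.068 and -0.23 in the telmisartan rats. In both groups the slide 1 rats lay below the slide 2 rats. The group means of -0.20 ± 0.26 and -0.27 ± 0.18 differed by -0.069 (SE 0.14, 95% interval -0.39 to 0.25, limma adjusted p = 0.997).

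Cnn1 encodes calponin, which binds actin and restrains the motor. It read -1.57, -1.28, -0.84 and -0.98 in the controls and -0.63, -0.93, -1.41 and -1.04 in the telmisartan rats. Control 102 was lowest and Telmisartan 302 highest, and the order of the groups was opposite on the 2 slides. The means of -1.17 ± 0.33 and -1.0 ± 0.32 differed by 0.17 (SE 0.20, limma adjusted p = 0.985), and by 0.032 without Control 102. Tagln encodes transgelin, an actin-bundling protein and early marker of smooth muscle. It read -1.08, -0.83, -0.64 and -0.41 in the controls and -0.50, -0.63, -0.72 and -0.44 in the telmisartan rats, with a difference of 0.17 (SE 0.14). Control 102 and 103 were its lowest rats, the other 6 overlapped, and without Control 102 the difference was 0.057.

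Smtn encodes smoothelin, an actin-associated protein of contractile smooth muscle. It read -1.27 in Control 102 and between -0.73 and -0.39 in the other 7 rats. The difference of 0.040 (SE 0.18, 95% interval -0.36 to 0.44) therefore took in 1 low control, and without Control 102 it was -0.16. Des encodes desmin, the intermediate filament of smooth and striated muscle. It read -1.84, -1.75, -1.24 and -1.17 in the controls and -1.40, -1.65, -1.71 and -1.62 in the telmisartan rats. The slide 1 controls were lowest and the slide 2 controls highest, with all treated rats between them, and the difference was -0.093 (SE 0.17, 95% interval -0.46 to 0.28).

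Casq2 encodes calsequestrin 2, which holds calcium in the sarcoplasmic reticulum and is best known from the heart. It read -0.84, -0.73, -0.81 and -0.85 in the controls and -0.23, -0.47, -0.70 and -0.76 in the telmisartan rats. The controls lay close together, the slide 1 telmisartan rats lay well above them and Telmisartan 306 lay within their range. The means of -0.81 ± 0.054 and -0.54 ± 0.24 differed by 0.27 (SE 0.12, 95% interval -0.010 to 0.54), and by 0.16 without Telmisartan 302. Its probe was dim, with Cy5 intensities of 338 to 579, close to those of the second Myh11 probe. Without background correction its control level was -0.60 and the difference 0.17, and with the scanner software's own ratio -1.22 and 0.28. With loess, the median control level over the members is the value of this gene.

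**Figure D3:**
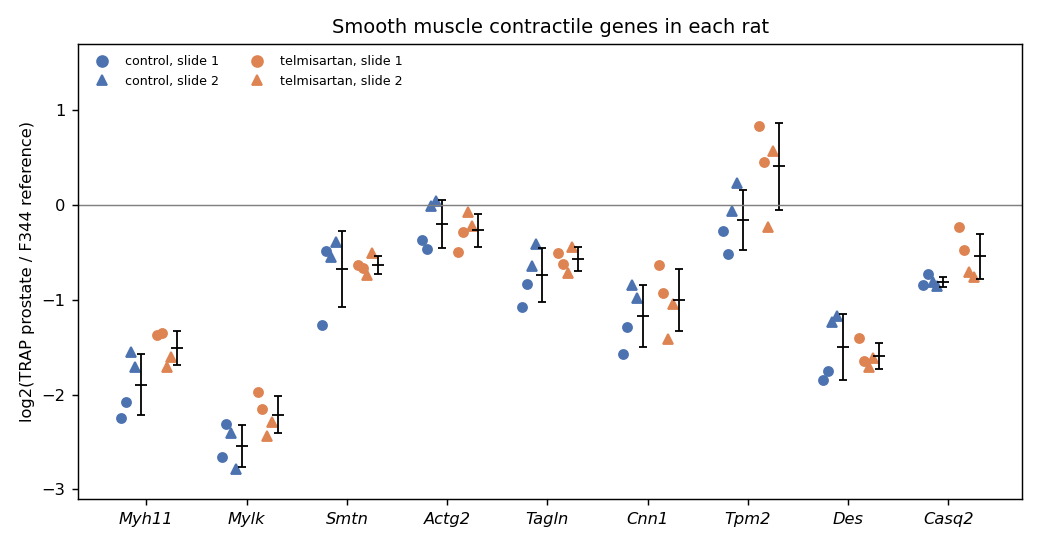
Level of the 9 measured members in each rat as log2(TRAP/reference), with colour for the group and marker shape for the slide. The groups overlap for every gene, and Control 102 is the lowest rat for 5 of the 9.

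Whether telmisartan altered these genes was asked by comparing the groups over all genes. No gene passed at an adjusted p of 0.05 in limma (0% of 23207), and none of the 9 members did. At an unadjusted p under 0.05 stood 1118 genes, or 4.82%. Higher in telmisartan rats at that p were 3 of the 9 members, Myh11, Mylk and Tpm2, against 2.74% of all genes, and no member was lower at it, against 2.08%. That count of 3 rested on single rats: it was 0 without Control 102, without Telmisartan 302 and without Telmisartan 303, and ranged from 0 to 4 as each rat was left out. In none of the 9 did the groups fail to overlap, while they did so for 2.73% of all genes. The members were chosen with earlier results of these data known. Their counts beside shares of all genes, here and in the paragraphs below, are therefore a description and no test of enrichment.

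In mean, 7 members were higher in telmisartan rats, against 49.4% of all genes, and Actg2 and Des were lower. The median difference was 0.17 over the members and -0.0019 over all genes. With median centring 8 of the 9 were higher, since Actg2 changed sign. With the software's own ratio, or the Cy5 channel alone, no member had an unadjusted p under 0.05. Leaving out Control 102 lowered the median over the members to 0.057. The control rats differed among themselves: the median SD was 0.32 over the members and 0.17 over all genes in control rats, and 0.18 for both in telmisartan rats, although the controls of Casq2 had an SD of 0.054. Control 102 lay below the control mean for all 9 members, by 0.27 on average, whereas Control 104 lay above it for all 9.

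The difference between the groups was not alike on the 2 slides. On slide 1 all 9 members were higher in the telmisartan rats, with a median difference of 0.42, while 49.9% of all genes were higher. On slide 2 only Mylk, Casq2 and Tpm2 were higher, 3 of 9, with a median of -0.053 and 48.5% of all genes higher. All 9 differences were smaller on slide 2, as were 49.7% of all genes. Each slide holds 2 rats per group, so 1 rat moves its slide's value strongly. Several members varied together over the rats, as given below, so the 9 are not separate observations.

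The difference between slides was tested as an interaction in limma. No gene passed at an adjusted p of 0.05 (0%), and 1.63% of all genes had an unadjusted p under 0.05. Among the members that held for 4 of 9: Myh11, Cnn1, Des and Tpm2. For Myh11 the difference was 0.81 on slide 1 and -0.031 on slide 2, a change of -0.84 (SE 0.19, 95% interval -1.27 to -0.41, limma unadjusted p = 0.00232). Cnn1 went from 0.65 to -0.32, a change of -0.97 (SE 0.26), and Des from 0.28 to -0.46, a change of -0.74 (SE 0.19). Tpm2 went from 1.04 to 0.086, a change of -0.95 (SE 0.39). Mylk changed least, from 0.42 to 0.24 (change -0.18, SE 0.26).

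**Figure D4:**
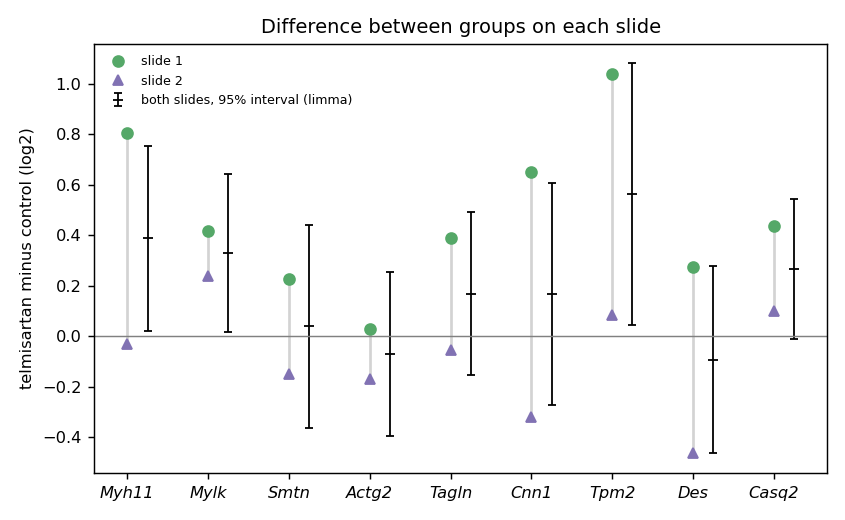
Difference between telmisartan and control rats (log2) for each member on slide 1, on slide 2 and over both slides with limma's 95% interval. Every slide 1 value lies above 0 and above its slide 2 value, and 6 of the 9 slide 2 values lie below 0.

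The members varied more in the channel of the TRAP rats than in that of the reference, which was not worked out for all genes. Channel values were taken after loess and after quantile scaling of mean intensity between arrays. Over the 8 arrays, the brightest probes had an SD of 0.21 to 0.36 in Cy5 and of 0.036 to 0.20 in the reference channel, where Tpm2 was highest. Immune markers differed between the same rats: their mean level was 2.03 in Control 102 but 0.81 in Control 103, and 0.41 in Telmisartan 302 against 1.18 to 1.82 in the other telmisartan rats. In mean, 15 of 16 immune markers were lower in telmisartan rats, with a median difference of -0.51. Their part in the member differences was not tested.

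How far the members moved together was asked by correlating Myh11 with the other 8 over the rats. Cnn1 had the highest coefficient over all 8 rats with loess, with Pearson's r = 0.846 (exact permutation p = 0.00861, adjusted over 8 comparisons 0.0688) and Spearman's rho = 0.881 (exact permutation p = 0.00724). Tpm2 gave r = 0.786 (exact permutation p = 0.0199, adjusted 0.0701) and rho = 0.810 (exact permutation p = 0.0218). Tagln gave r = 0.768 (exact permutation p = 0.0263, adjusted 0.0701) and rho = 0.595 (exact permutation p = 0.132). None of the 8 passed after adjustment, and with median centring these 3 did, at r = 0.853, 0.878 and 0.885.

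Control 102 and 103 were furthest from the Myh11 median. Without them r was 0.838 for Mylk, 0.828 for Casq2, 0.707 for Cnn1 and 0.640 for Tpm2. It was then -0.091 for Tagln, whose relation with loess rests on these rats, and -0.129 for Des, -0.376 for Smtn and -0.796 for Actg2. With median centring and without the same rats r was 0.625 for Tagln, 0.143 for Des, 0.192 for Smtn and 0.030 for Actg2. With loess and slide means removed, r was 0.883 for Casq2, 0.853 for Cnn1, 0.802 for Tpm2, 0.788 for Tagln and 0.760 for Mylk. For the others it was then 0.050 to 0.506. With group means removed instead, r was 0.908 for Cnn1, 0.887 for Des, 0.726 for Tagln, 0.636 for Tpm2 and 0.594 for Smtn. It was then 0.42 for Actg2, 0.360 for Casq2 and 0.272 for Mylk. The member closest to Myh11 thus depended on the rats and on the slide, and the order of the others also on the group. Over all rats Casq2, Mylk, Des and Smtn gave r between 0.501 and 0.636, and Actg2 gave 0.20. Against the mean of the other 8 members, Cnn1 and Myh11 stood highest, at 0.924 and 0.908, and Actg2 lowest, at 0.036. These values share arrays and are a description.

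**Figure D5:**
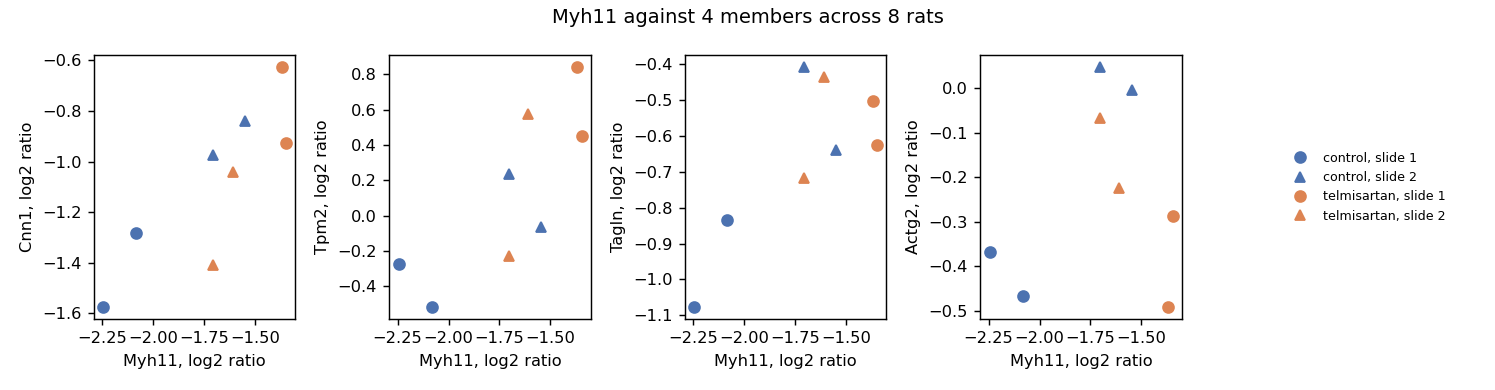
Log2 ratio of Myh11 against that of 4 other members in each of the 8 rats, with colour for the group and marker shape for the slide. Over all 8 rats r was 0.846 for Cnn1 and 0.20 for Actg2.

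Among 11413 other named genes, those most like the mean of the members over the 8 rats by Pearson's r were Slc24a3 (0.955), Crtc2 (0.939), Ficd (0.928), Hmmr (0.928), Kcng2 (0.921) and Mrgprd (0.920). Slc24a3 encodes a sodium, calcium and potassium exchanger, and Kcng2 a modulatory potassium channel subunit. With so many candidates and few rats, this ranking is a description.

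Of 27 other smooth muscle contractile and cytoskeletal genes, 21 were tested and none passed. In mean 16 were higher in telmisartan rats and 5 lower, with a median difference of 0.13 and a median control level of -0.68, and 15 to 18 were higher under the other scalings. Tpm1, the alpha-tropomyosin gene, differed by 0.31 (SE 0.15). Hspb6, a small heat shock protein of relaxing muscle, differed by 0.30 (SE 0.17), and Ppp1r14a, an inhibitor of myosin phosphatase, by 0.27 (SE 0.14). Synm, an intermediate filament partner of desmin, differed by 0.25 (SE 0.14). As for the members, slide 1 gave the larger median, 0.26 against 0.020 on slide 2.

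Regulators of the smooth muscle program were listed separately. Of 13, 7 were tested, 4 were higher in mean and 3 lower, and none passed. Srf, the factor that binds the CArG box of contractile genes, differed by -0.19 (SE 0.098), and the groups did not overlap. Its coactivator Mrtfa differed by -0.17 (SE 0.16) and the kinase gene Prkg1 by 0.16 (SE 0.14). Gata6, a transcription factor of smooth muscle, differed by 0.085 (SE 0.14). The CArG box was searched on both strands in RefSeq promoter windows of assembly GRCr8, 250 bases before to 50 after the start. It was found in 0 of the windows of 8 listed genes, Acta2 among them, in 2 of those of 24 other smooth muscle contractile and cytoskeletal genes, and in 1.64% of 33469 windows in all, so a count of 0 is near the background. With 1 G or C allowed in its core it was found in 1 of the 8, Acta2, against 8.10% of all windows. Windows of Myh11 and Tagln were not used here. Whether the RefSeq start of each gene is the one used in prostate was not tested, so a window can miss the promoter in use.

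Of 16 calcium handling and channel genes, 13 were tested, and 8 were higher in mean and 5 lower. The sign of their median difference, 0.012, turned with 1 other method of background correction (-0.0084) and with the software's own ratio (-0.027). It stayed positive under the remaining scalings. Atp2a2, the calcium pump of the reticulum, differed by -0.26 (SE 0.11, limma unadjusted p = 0.0441, adjusted p = 0.981), and Jph2, which joins reticulum to surface membrane, by 0.28 (SE 0.15).

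Receptors that contract smooth muscle included the gene with the smallest unadjusted p of these 4 pathway lists. Of 15 listed, 11 were tested, and 9 were higher in mean and 2 lower. Adra1d, an alpha-1 adrenergic receptor, differed by -0.52 (SE 0.12, limma unadjusted p = 0.00166, adjusted p = 0.904), with no overlap of the groups. Chrm3, a muscarinic receptor, differed by 0.30 (SE 0.17) and P2rx1, an ATP-gated channel, by 0.25 (SE 0.15). Agtr1a, the receptor that telmisartan blocks, differed by 0.13 (SE 0.10).

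Markers of other cells were measured beside these. Of 26 striated muscle markers 21 were tested, and 19 lay more than 2-fold below the reference in all 8 rats, with a median control level of -3.74. Their mean level ranged from -3.50 to -3.16 in control rats and from -3.49 to -3.36 in telmisartan rats. Des, Casq2 and Tpm2 are also made in striated muscle, and the part of that tissue in their levels was not tested. Between the groups, 9 striated muscle markers were higher and 12 lower, with a median difference of -0.020. Of pericyte markers 3 of 8 were higher in telmisartan rats, of fibroblast markers 5 of 13 and of endothelial markers 3 of 10, and none passed. Among the fibroblast markers Mfap5 differed by -0.56 (SE 0.16), with no overlap of the groups, and Postn by -0.40 (SE 0.17). Of epithelial markers 6 of 11 were higher, with a median difference of 0.16, and of ventral prostate markers 7 of 11, with a median of 0.12. Among the epithelial markers Krt15 and Tp63, genes of basal epithelium, differed by 0.72 (SE 0.30) and 0.50 (SE 0.28), and Prom1 by -0.34 (SE 0.15). Among the ventral prostate markers the secretory gene Scgb1d2 differed by 0.81 (SE 0.22), Sbp by 0.30 (SE 0.10) and Pbsn by -0.36 (SE 0.19). In mean 5 epithelial and 4 ventral prostate markers were lower, and none of either list passed. The part of the epithelium in the member differences was not tested. Pericyte marker means ranged from -0.80 to -0.59 in control and from -0.82 to -0.61 in telmisartan rats.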

How the data were processed

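Per the file headers, arrays were read with Agilent Feature Extraction 9.1. The deposited files hold, per spot, mean intensity and median background intensity in both channels. They also hold a log10 ratio (Cy5 over Cy3), which the software had background-subtracted and dye-normalized, per the file headers. The deposited series matrix held the same log10 ratios, matched in file order within 0.005, with the same scale and direction and a median of 0 on every array.

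Intensities were corrected with normexp (offset 50) and normalized by loess within arrays, with control spots at weight 0, in limma 3.58.1 under R 4.3.3, and tables were read with data.table (version 1.17.8). Control spots and outlier flags were left out and spots averaged per probe. A probe needed a Cy5 signal well above background on 4 or more arrays and a value on all 8. The brightest probe stood for its gene. Dyes were not swapped, so every array carries the same dye effect. The log2 ratios of the groups were tested in limma (lmFit, eBayes) with Benjamini-Hochberg adjustment over 23207 genes, and scripts were tested on simulated data. The interaction with slide was a second fit. Correlations used exact two-sided permutation tests, for 8 pairs because Acta2 was not analysed here. Names came from RefSeq tables of GRCr8, used for names and promoter sequence only.

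The members and lists were chosen with earlier results of these data known. Named were all members, at most 4 genes per list in order of unadjusted p, and the 6 genes most like the members. A further gene group is not reported here. Alternatives covered background correction, normalization, the Cy5 channel, dim probes, several probes per gene, slide, variance, array weights and each rat left out.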

Additional observations from a re-analysis of the deposited data

Results flagged for a closer look

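In groups of 4 rats, 46 sets of values were examined for 1 rat far from the other 3, and 3 were marked. Chance alone marks about 1 in 20 such groups. All 3 were in control rats. The mean level of the smooth muscle regulators was 0.29 in Control 102, and that of the calcium handling genes -0.80 in Control 104. The mean of the immune markers was 0.81 in Control 103, below the other controls at 1.87 to 2.03. No brightest probe of a member was marked in either group.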

How the results depend on the processing

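No paired analysis was possible because the groups share no replicate numbers; slide was fitted as a block instead and no gene passed. No gene passed in any other setting with all rats of the fit, and leaving out each rat gave 0 to 1. The exceptions, named after their values were seen, were BI289714 without Control 102 and AI045810 without Telmisartan 303. Genes at an unadjusted p under 0.05 numbered 467 on slide 1 alone, 1959 without the dim probe filter, 2597 with array weights, and 669 (without Telmisartan 306) to 2019 (without Control 103) with each rat left out, against 1118. Without Telmisartan 305 there were 1759. No interaction passed, with 194 to 773 genes at an unadjusted p under 0.05.

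The median member level over the reference was -0.24 with median centring, -1.22 with the software's ratio and with the series matrix, and -0.85 to -0.80 with each rat left out. Correlations with Myh11 passed for 3 members with median centring. Tpm2, Mylk and Casq2 kept a positive difference in all 23 alternatives. These are not all separate checks. Quantile scaling of mean intensity between arrays left the log2 ratios as in the main fit, and the series matrix holds the software's ratios. Slide 2 alone turned Myh11 to -0.031, Tagln to -0.053, Cnn1 to -0.32 and Smtn to -0.15, and the median over members to -0.053. Slide 1 alone turned Actg2 to 0.029 and Des to 0.28. Actg2 was 0.039 with median centring, Des 0.023 and Smtn -0.019 in the Cy5 channel alone, and Smtn -0.032 with the mean of its probes, one of which was not above background in the reference. With each rat left out Smtn ranged from -0.16 to 0.13, Actg2 from -0.16 to 0.012, and Des from -0.21 to 0.018. The number of members higher ranged from 6 to 9, the median over members from 0.057 to 0.30, Myh11 from 0.27 to 0.50, Tagln from 0.057 to 0.28, Cnn1 from 0.032 to 0.30 and Casq2 from 0.16 to 0.34. The cause was not tested.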

Other observations

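A probe that the files name only as LOC360902, similar to gamma-2 actin, was read beside Actg2, a comparison chosen after its values were seen. It was well above background in both channels on all 8 arrays and read 1.26 ± 0.23 in control and 1.16 ± 0.18 in telmisartan rats (SD, n = 4 each). Over the 8 rats it followed Actg2 with r = 0.966 (exact permutation p = 0.000397) and rho = 0.952 (exact permutation p = 0.00114). Without Control 104 and 106, which lay furthest from the Actg2 median, r came to 0.937, and after removal of slide means to 0.868. The levels differed all the same, since Actg2 lay at -0.20 in control rats. Whether both probes read 1 transcript was not tested.

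The mean immune marker level was also set against each of the 9 members over the 8 rats, again after the values were seen. Group means were not removed, so a group difference in both values and a link between rats cannot be told apart. Mylk gave r = -0.845 (exact permutation p = 0.00719, adjusted over 9 comparisons 0.0647) and rho = -0.810 (exact permutation p = 0.0218). Casq2 gave r = -0.784 (exact permutation p = 0.0193, adjusted 0.0867) and rho = -0.810 (exact permutation p = 0.0218). Actg2 went the other way, with r = 0.739 (exact permutation p = 0.0439, adjusted 0.132) and rho = 0.619 (exact permutation p = 0.115). Without Telmisartan 302 and Control 103, the rats furthest from the immune median, r was -0.796 for Mylk, -0.726 for Casq2, -0.877 for Tpm2 and 0.353 for Actg2. With slide means removed it was -0.808 for Mylk, -0.757 for Tagln and for Smtn, -0.701 for Casq2 and 0.667 for Actg2. No member passed after adjustment, and Myh11 gave r = -0.354 (exact permutation p = 0.388) and rho = -0.429.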
